A study of Oryza sativa with 12 samples.

Results

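A total of 123 rice genes that have no name of their own in the reference gene table rose at least 4-fold after desiccation stress (DS) in both the *OsHOX24* over-expression line and wild-type (WT) seedlings. A gene was taken as unnamed when its reference symbol and every synonym were only a locus or clone code, as in LOC4324254, and 13399 of 15140 genes were of this kind, counting only genes measured by a probe set that no other gene shared. To be a member, the gene's group mean had to be higher by at least 2 on the log2 scale in DS than in control in each genotype, and each of its 6 DS arrays had to lie above each of its 6 control arrays. The 123 genes were 0.918% of the unnamed genes. The same numerical rule was met by 31 of the 1741 named genes (1.78%) and by 154 of all 15140 genes (1.02%), and turned round to a fall it was met by 70 unnamed genes (0.522%). The responses to DS of these genes are thus a description of what the rule chose, and no test is given for them.

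Expression was measured on 12 Affymetrix arrays in 4 groups of 3, made from whole seedlings of the rice variety Pusa Basmati 1 that had grown for 3 weeks in hydroponic trays. In DS, labelled drought stress, the seedlings were dried between folds of tissue paper for 3 h, and in control (CT) they stood in water for 3 h. The groups were the over-expression line after DS (H49_DS), WT after DS (WT_DS), the over-expression line in water (H49_CT) and WT in water (WT_CT). H49 is a single transgenic line in which a ubiquitin promoter drives the *OsHOX24* coding sequence, so a difference between H49 and WT is that of 1 line. Since whole seedlings were used, fewer cells of a type and less RNA per cell cannot be told apart in any value below. All values are RMA values, which are probe set intensities normalized over the arrays on the log2 scale, so that a difference of 1 is 2-fold. Replicate 1 of WT_DS and of WT_CT stood apart from the other arrays in these genes. The counts of all members higher or lower in H49 are therefore also given without those arrays. Counts of arrays without overlap, counts at an unadjusted p and the splits within a description class are given over all arrays only.

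Rice seedlings that lose water make the hormone abscisic acid (ABA) from carotenoids, with the cleavage by 9-cis-epoxycarotenoid dioxygenase as the controlling step. ABA bound to its receptors blocks the protein phosphatases 2C, which frees the kinases that activate bZIP factors on the promoters of dehydration genes. Among the targets known in plants are the late embryogenesis abundant (LEA) proteins, small hydrophilic proteins that accumulate in drying seeds and stressed leaves, together with enzymes of sugar and amino acid metabolism and further transcription factors of the NAC, MYB and AP2/ERF families.

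*OsHOX24* itself, the gene of the construct, met the same folds but has a name and is no member. It read 10.17, 9.44 and 9.96 in H49_DS, 9.38, 10.29 and 10.06 in WT_DS, 4.56, 3.57 and 3.23 in H49_CT, and 5.61, 4.11 and 2.83 in WT_CT. The arrays labelled as over-expression were not higher than WT, with a difference of -0.06 after DS (95% interval -1.23 to 1.12) and of -0.39 in water (95% interval -1.57 to 0.78). The paper reports that its selected lines, H49 among them, passed Southern blotting and had more *OsHOX24* transcript than WT by real-time PCR. Where the probe set lies relative to the construct's coding sequence was not known, so the labels were not checked by it. Each direction between genotypes here is between the arrays labelled as over-expression and as WT. The name H49 for the line comes from the study's paper, since the labels name only the over-expressed gene. Its response of 6.07 in H49 and 5.73 in WT was exceeded by 0 members.

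The 123 genes were unnamed in the symbol sense alone. Descriptions could be attached to 117 of them from the study's gene list, each at the chromosome that the reference table gives for the gene, and 6 had none. The list had been selected by the study for differential expression in these same arrays, so the share of any description among unselected genes is not known and no description is called frequent here. Of the 117, 27 were described only as an expressed protein, 2 by a domain of unknown function and 1 as uncharacterized, so that no function was stated for 36 of the 123. The 6 without a match may still be described elsewhere, since only 1997 entries, a part of the list, were read and 1859 of these matched 1 probe set. By biotype 118 were protein-coding, 4 were long non-coding RNAs (lncRNAs) and 1 was a miscellaneous RNA. The lncRNAs made up 3.25% of the members against 2.99% of all unnamed genes. Chromosome 1 held 38 members (30.9%, against 16.6% of all unnamed genes) and chromosome 3 held 24 (19.5%, against 12.3%), while chromosomes 10 and 11 held 2 each.

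In water these genes lay at low, middle and high levels, and after DS most were high. Their DS means had a median of 8.24 and ran between 4.88 and 11.28, and their control means had a median of 5.34 and ran between 2.04 and 9.09, while the medians over all genes were 5.03 in DS and 5.26 in control. After DS 121 of the 123 lay above the all-gene median and 111 above the all-gene upper quartile of 6.29. In control 59 lay below the all-gene median and 30 above the upper quartile of 6.48. The lowest control mean belonged to LOC4351369 (2.04), a NAC family factor, followed by LOC4325434 (2.32), which had no description, and LOC4337661 (2.51), annotated as the low temperature and salt responsive protein OsRCI2-7. The highest belonged to LOC4332401 (9.09), a haloacid dehalogenase-like hydrolase, LOC4337046 (8.51), a transcript with a conserved upstream reading frame, and LOC4324333 (8.24), a selenium-binding protein.

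The median response was 2.72 in H49 (from 2.01 to 5.42) and 2.60 in WT (from 2.01 to 5.13), against medians over all genes of -0.06 in each genotype. Both responses reached 3 in 32 members, 4 in 6 members and 5 in 1 member. These 32 had a median level of 8.93 in DS and 5.17 in control, and the other 91 had 8.11 in DS and 5.39 in control. The gap between the lowest DS array and the highest control array had a median of 1.68 and was over 1 in 105 members. It was widest, at 3.87, in the LEA gene LOC4324254 and narrowest, at 0.07, in LOC4328018, a gene with no description.

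**Figure D1:**
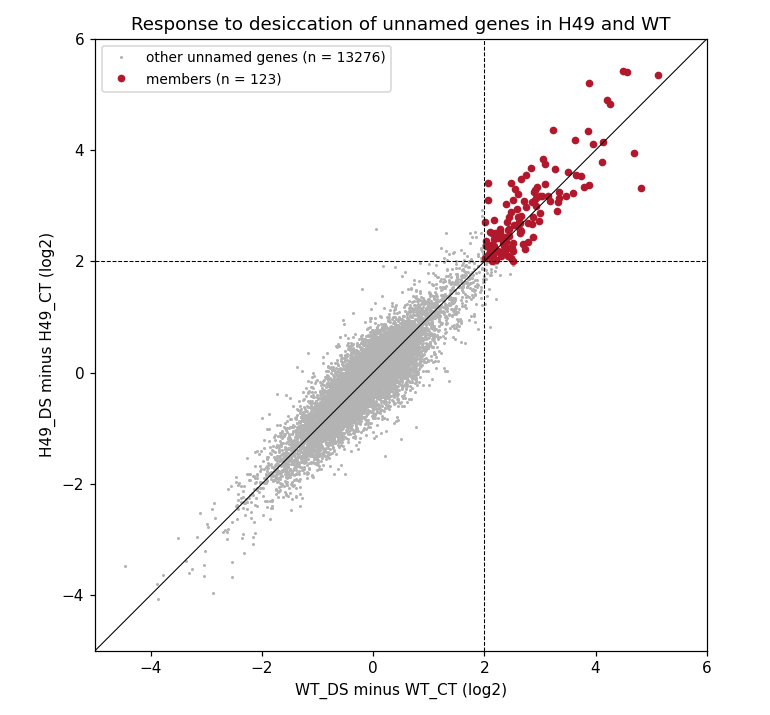
Response to desiccation of the unnamed genes, with WT_DS minus WT_CT across and H49_DS minus H49_CT up, both in log2 units. The 123 members (red) lie at or beyond the dashed lines at 2, where the rule put them, and the solid line marks equal responses.

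Just inside the threshold were LOC4347179, a tyrosine protein kinase domain protein (2.01 in H49 and 2.52 in WT), LOC4339527, a protease inhibitor and lipid transfer family protein (2.70 in H49 and 2.01 in WT), and LOC4334077, the stem-specific protein TSJT1 (2.01 in H49 and 2.13 in WT). Just outside were LOC9271022, for which no description was matched (1.998 in H49 and 2.229 in WT), LOC4347927, a plastocyanin-like domain protein (2.098 in H49 and 1.996 in WT), and LOC9266372, an external NADH-ubiquinone oxidoreductase (1.984 in H49 and 2.567 in WT). Only 1 unnamed gene met both folds and failed on overlap, the aminotransferase gene LOC4336982. Its value was 4.43 in WT_DS replicate 1, against 4.86 in H49_CT replicate 2.

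The member with the largest mean response was LOC4324254 (LOC_Os01g50910), described as a group 3 LEA protein. Its values were 10.44, 10.63 and 10.53 in H49_DS, 10.28, 10.22 and 10.48 in WT_DS, 5.26, 5.25 and 5.05 in H49_CT, and 6.35, 4.42 and 4.82 in WT_CT. All 6 DS arrays lay within a narrow band near the top of the range, and the control arrays were tight in H49 and wide in WT, where replicate 1 stood above the rest. The response was 5.35 in H49 and 5.13 in WT, or 40.7-fold in H49 and 35.0-fold in WT. A further 2 members were LEA or seed maturation genes. LOC4324175 (LOC_Os01g46600), annotated as seed maturation protein PM41, read 8.75, 8.43 and 9.14 in H49_DS, 9.58, 8.71 and 8.98 in WT_DS, 5.16, 5.27 and 5.78 in H49_CT, and 5.30, 4.3 and 6.01 in WT_CT. LOC4345287 (LOC_Os08g23870), a group 1 LEA gene, read 5.30, 6.34 and 6.02 in H49_DS, 5.84, 5.05 and 5.60 in WT_DS, 2.73, 2.67 and 2.51 in H49_CT, and 2.73, 2.76 and 2.31 in WT_CT. It had a response of 3.25 in H49 and 2.90 in WT, and its DS mean lay between the all-gene median and upper quartile while its 6 control values differed by less than 0.5.

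The ABA synthesis gene LOC4342424 (LOC_Os07g05940), annotated as 9-cis-epoxycarotenoid dioxygenase 1, came next. It read 8.15, 8.22 and 8.79 in H49_DS, 7.91, 8.50 and 8.66 in WT_DS, 3.30, 2.79 and 2.83 in H49_CT, and 4.44, 3.95 and 2.99 in WT_CT. The DS arrays of the genotypes overlapped, and WT_CT replicates 1 and 2 were higher than any H49_CT array. The response was 5.41 in H49 and 4.56 in WT. LOC4325395 (LOC_Os01g72900), described as an abscisic stress-ripening gene, had values of 6.93, 7.60 and 7.53 in H49_DS, 5.99, 7.0 and 6.76 in WT_DS, 4.19, 4.20 and 5.46 in H49_CT, and 5.22, 4.11 and 3.92 in WT_CT. Its response was 2.74 in H49 and 2.17 in WT, with a gap of 0.53 between WT_DS replicate 1 and H49_CT replicate 3.

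**Figure D2:**
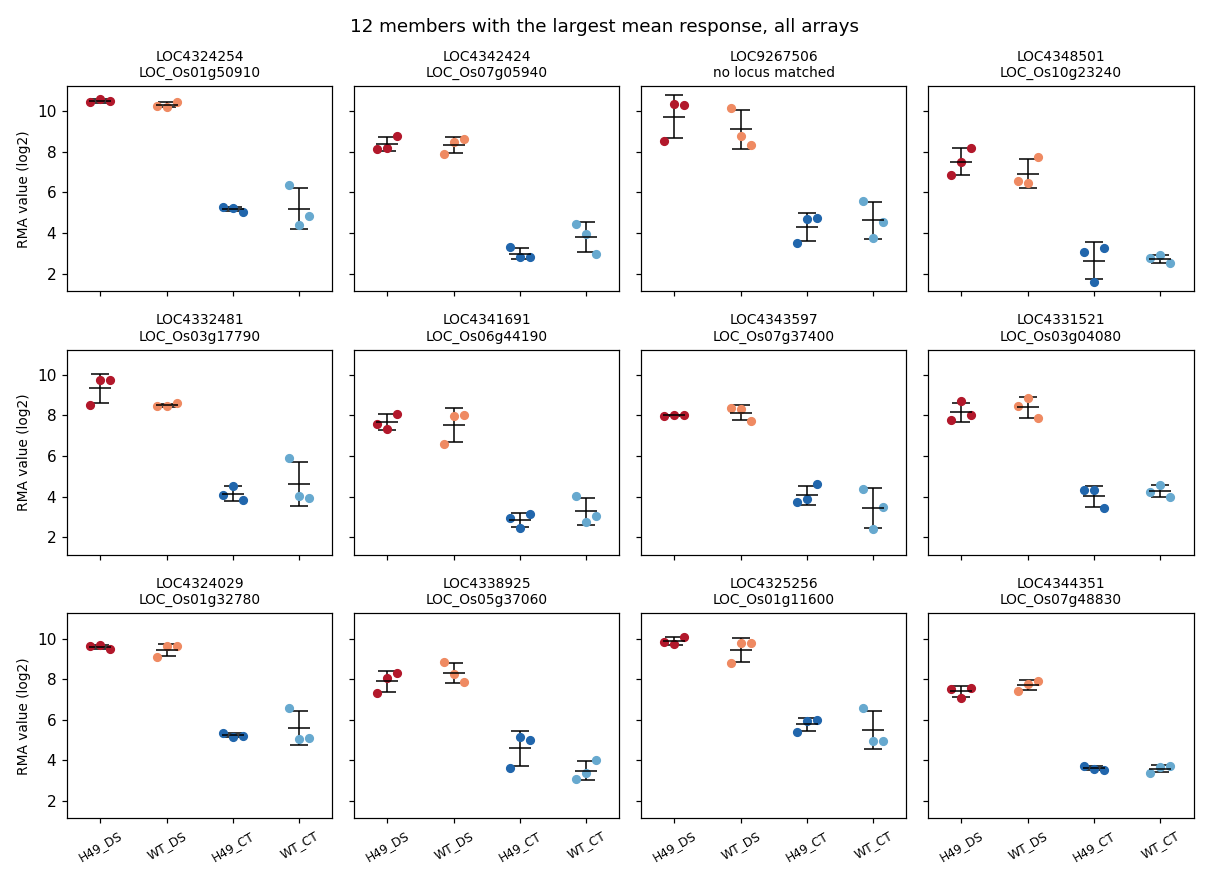
RMA values (log2) of the 12 members with the largest mean response, 1 panel a gene and 1 point an array, with the mean and SD of each group of 3 in black. DS and control arrays are apart by at least 2.18 in every panel, and WT_CT replicate 1 (leftmost point of its group) is the highest of the 6 control arrays in 7 of the 12.

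For 5 of these 12 genes no function was stated. LOC9267506, with no description matched, read 8.52, 10.34 and 10.34 in H49_DS, 10.18, 8.81 and 8.34 in WT_DS, 3.52, 4.67 and 4.74 in H49_CT, and 5.58, 3.75 and 4.52 in WT_CT. Its responses of 5.42 in H49 and 4.49 in WT came with an SD of 1.05 among the H49_DS arrays and 0.95 among the WT_DS arrays, and it was the 1 member whose H49_DS arrays had an SD over 1. LOC4348501 (LOC_Os10g23240), an lncRNA in the reference table, read 6.88, 7.52 and 8.18 in H49_DS, 6.56, 6.46 and 7.77 in WT_DS, 3.06, 1.59 and 3.25 in H49_CT, and 2.75, 2.90 and 2.53 in WT_CT. Every DS array lay above the all-gene upper quartile, and the H49_CT arrays were more spread than the WT_CT arrays. LOC4341691 (LOC_Os06g44190) had a response of 4.83 in H49 and 4.25 in WT, LOC4331521 (LOC_Os03g04080) 4.14 in H49 and 4.13 in WT, and LOC4325256 (LOC_Os01g11600) 4.12 in H49 and 3.96 in WT. The other 3 lncRNAs were LOC4326646, described as an inhibitor I family protein (3.84 in H49 and 3.06 in WT), LOC9267137 (3.55 in H49 and 2.74 in WT) and LOC9266316 (2.89 in H49 and 2.48 in WT).

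The remaining 5 of the 12 were an RCI2 gene, an F-box gene, a universal stress protein gene, and a MYB gene and a glycosyl transferase gene that are described with their groups. LOC4332481 (LOC_Os03g17790), the low temperature and salt responsive protein OsRCI2-5, read 8.53, 9.75 and 9.73 in H49_DS, 8.46, 8.45 and 8.60 in WT_DS, 4.06, 4.54 and 3.81 in H49_CT, and 5.88, 4.02 and 3.93 in WT_CT. Proteins of this kind are small hydrophobic membrane proteins. LOC4343597 (LOC_Os07g37400), the F-box protein OsFBX257, read 7.98, 8.0 and 8.05 in H49_DS, 8.37, 8.31 and 7.71 in WT_DS, 3.73, 3.87 and 4.60 in H49_CT, and 4.39, 2.42 and 3.49 in WT_CT. F-box proteins select targets for ubiquitin ligases, and here the response was 3.94 in H49 and 4.70 in WT. LOC4324029 (LOC_Os01g32780), a universal stress protein domain gene, read 9.62, 9.66 and 9.49 in H49_DS, 9.10, 9.62 and 9.63 in WT_DS, 5.36, 5.16 and 5.21 in H49_CT, and 6.55, 5.07 and 5.11 in WT_CT. All its control arrays except WT_CT replicate 1 lay within 0.3 of each other. A second gene of that domain, LOC4330472, had responses of 2.56 in H49 and 2.43 in WT.

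Transcription factors were the largest group with a stated function, with 14 members. Of these 5 were NAC (no apical meristem) genes, 3 AP2/ERF, 2 MYB, 2 basic helix-loop-helix, 1 the bZIP factor HBP-1b and 1 unspecified. Their median response was 2.86 in H49 and 2.62 in WT, beside 2.72 in H49 and 2.60 in WT over all members. The largest by the mean of both responses was the MYB gene LOC4338925 (LOC_Os05g37060), though in H49 alone the NAC gene LOC4332717 had a larger response (3.67 against 3.32). LOC4338925 read 7.32, 8.06 and 8.30 in H49_DS, 8.82, 8.26 and 7.83 in WT_DS, 3.60, 5.14 and 4.99 in H49_CT, and 3.08, 3.36 and 4.0 in WT_CT. It was the member whose responses lay furthest apart, at 3.32 in H49 and 4.82 in WT, and 2 of its H49_CT arrays stood above all WT_CT arrays. The NAC gene LOC4332717 read 9.16, 8.52 and 8.91 in H49_DS, 7.97, 9.30 and 8.76 in WT_DS, 5.22, 5.38 and 4.97 in H49_CT, and 6.09, 5.97 and 5.46 in WT_CT. The H49_CT arrays all lay below the WT_CT arrays, and the DS arrays of the genotypes overlapped. The ERF gene LOC4331910 had responses of 3.17 in H49 and 3.03 in WT and the helix-loop-helix gene LOC4347252 had 2.90 in H49 and 3.30 in WT. The 5 NAC genes ran between 2.18 and 3.67 in H49 and between 2.04 and 2.84 in WT. Over the whole group 10 genes had the larger response in H49 and 4 in WT. The split over all members turned when replicate 1 of either WT group was left out, and that of the 14 factors alone is given over all arrays only.

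**Figure D3:**
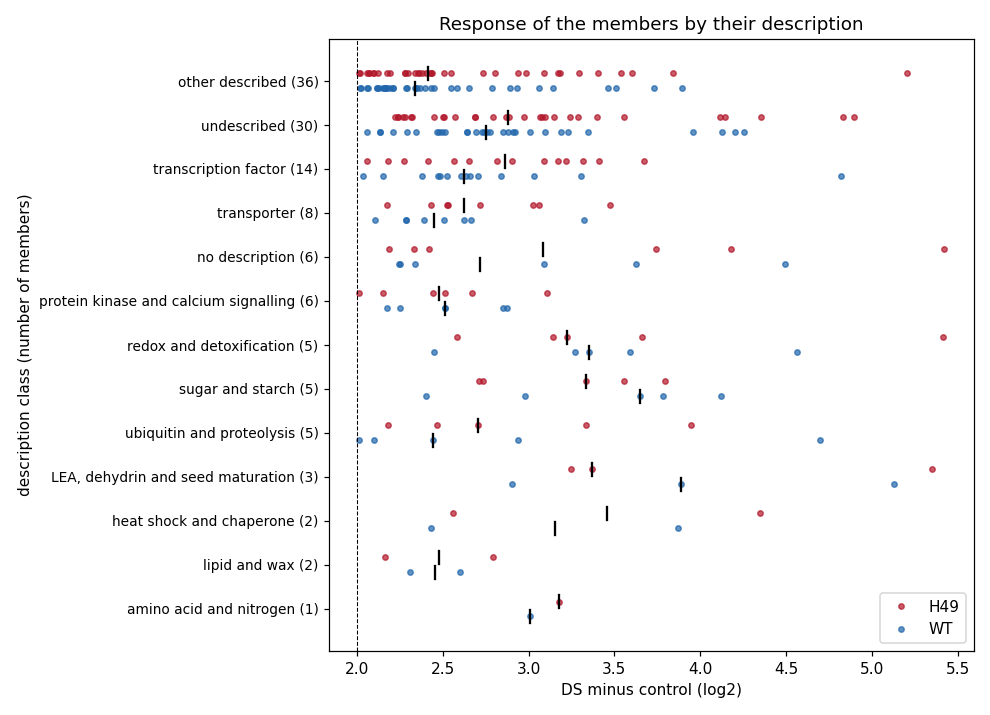
Responses of the 123 members (DS minus control, log2) by description class, with H49 in red above WT in blue, 1 point a gene and a black bar at the class median. Classes follow words in the descriptions, so a class name need not fit each gene. The heat shock and chaperone class holds only the 2 universal stress protein genes. The redox and detoxification class includes the ABA synthesis gene LOC4342424 and the saccharopine dehydrogenase gene LOC4330940. The dashed line is the rule's minimum of 2; the 14 transcription factors have medians of 2.86 in H49 and 2.62 in WT, and the 5 sugar and starch genes have medians of 3.34 in H49 and 3.65 in WT.

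Sugar and starch genes were 5, with a median response of 3.34 in H49 and 3.65 in WT. A pair of these were glycosyl transferase 8 domain genes, a family that includes the galactinol synthases. LOC4344351 (LOC_Os07g48830) read 7.53, 7.07 and 7.58 in H49_DS, 7.42, 7.76 and 7.91 in WT_DS, 3.70, 3.58 and 3.53 in H49_CT, and 3.37, 3.65 and 3.71 in WT_CT. LOC4332654 (LOC_Os03g20120) read 10.29, 9.57 and 10.37 in H49_DS, 10.03, 10.33 and 10.42 in WT_DS, 7.24, 6.56 and 5.75 in H49_CT, and 6.76, 6.74 and 6.35 in WT_CT. Neither gene separated the genotypes in either treatment. A further pair were beta-amylases, which release maltose from starch. LOC4331577 had responses of 3.34 in H49 and 3.78 in WT and LOC4349417 had 2.73 in H49 and 2.98 in WT, and the fifth gene was the fructose-bisphosphate aldolase LOC4344545, with 2.71 in H49 and 2.41 in WT. The response was larger in WT for 4 of the 5 genes.

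Enzymes of amino acid and redox metabolism were also present. The saccharopine dehydrogenase gene LOC4330940 (LOC_Os02g54254), whose enzyme acts in lysine breakdown, had some of the highest values of all members, with 11.49, 11.27 and 11.24 in H49_DS, 10.60, 11.21 and 11.24 in WT_DS, 7.34, 7.44 and 8.24 in H49_CT, and 8.46, 7.32 and 7.46 in WT_CT. The asparagine synthetase gene LOC4332506 (LOC_Os03g18130) read 10.19, 10.17 and 9.78 in H49_DS, 9.96, 10.22 and 9.98 in WT_DS, 7.02, 7.30 and 6.28 in H49_CT, and 7.95, 7.01 and 6.17 in WT_CT. Asparagine carries nitrogen between organs, and the gene's 6 DS arrays lay within 0.5 of each other while the controls were spread over more than 1.5. The thioredoxin gene LOC4324678 had responses of 3.14 in H49 and 3.35 in WT, and the oxidoreductase gene LOC4347198 had 3.22 in H49 and 3.59 in WT.

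The words that sorted the descriptions put 8 members with transporters and 6 with kinases, receptors and calcium signalling. The amino acid transporter LOC4328577 had responses of 3.06 in H49 and 3.32 in WT, the sulfate transporter LOC4324697 had 3.02 in H49 and 2.39 in WT, and LOC4332079, a transporter family protein, had 2.72 in H49 and 2.62 in WT. LOC9271971 (3.47 in H49 and 2.67 in WT) and LOC4326678 (2.18 in H49 and 2.51 in WT) fell in the transporter class through the word ATPase. LOC9271971 is described as related to a DNA repair ATPase and LOC4326678 as an AAA-type ATPase family protein. In the signalling class the EF hand calcium-binding gene LOC9270827 had 2.67 in H49 and 2.85 in WT and the C2 domain gene LOC4329137 had 2.44 in H49 and 2.87 in WT. LOC4340822 (3.11 in H49 and 2.51 in WT) carries a steroid receptor description and LOC4334379 (2.51 in H49 and 2.25 in WT) is annotated as a gibberellin receptor GID1L2. Proteolysis terms took in the peptidase LOC4343891 (2.18 in H49 and 2.1 in WT), the protease inhibitor and lipid transfer genes LOC4342003 (3.33 in H49 and 2.94 in WT) and LOC4339527, and a second F-box gene, LOC4325080 (2.46 in H49 and 2.44 in WT). The lipid genes were the GDSL-like lipase LOC4338092 (2.79 in H49 and 2.60 in WT) and the lipase LOC4327707 (2.16 in H49 and 2.31 in WT). Among the other 36 described genes were OsRCI2-5, LOC4332145 (ATP8, 3.54 in H49 and 3.73 in WT), the GRAM domain gene LOC9267937 (3.60 in H49 and 3.51 in WT) and LOC4326646. No member was described as a protein phosphatase 2C. Of the genes named as such, only those in the list of ABA and dehydration genes below were looked at. Among these, 4 (PP2C09, PP2C30, PP2C59 and PP2C68) met the same numerical rule and are no members only because of their names.

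Some members lay close together in the rice genome. In the order of the reference annotation 8 pairs were within 100 kb of each other, on chromosomes 1 and 3. Such pairs were not counted for other sets of genes, so their number is a description and is not called high or low. The F-box gene LOC4325080 and LOC4325081, a Sad1/UNC-like domain gene, were adjacent, with responses of 2.46 and 2.09 in H49 and of 2.44 and 2.29 in WT. The LEA gene LOC4324254 and the helix-loop-helix gene LOC4327669 had 2 genes between them, and LOC4324254 and LOC9267885, an expressed protein, had 12. Their responses were far apart, with 5.35, 2.06 and 2.69 in H49 and 5.13, 2.49 and 2.78 in WT in that order of genes. The NAC genes LOC4332717 and LOC4332714 had 3 genes between them and responses of 3.67 and 2.18 in H49 and of 2.84 and 2.15 in WT. LOC4327669 and LOC9267885 also lay within this distance, with 9 genes between them. The other pairs were LOC4324059 with LOC4324068, LOC4324726 with LOC4323915, and LOC9266557 with LOC4334663, with 11, 8 and 15 genes between them.

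Only 2 members were measured by more than 1 probe set of their own, and these differed in how they behaved. For the GRAM domain gene LOC9267937 the second probe set had responses of 3.33 in H49 and 3.32 in WT, beside 3.60 in H49 and 3.51 in WT for the brighter one. For LOC4323915, a gene with a domain of unknown function, the second probe set had -0.28 in H49 and -0.45 in WT, beside 2.24 in H49 and 2.47 in WT for the one used. The one used had the higher mean over all arrays only through its DS arrays. Its mean was 6.94 in DS and 4.59 in control, against 5.02 in DS and 5.39 in control for the second. The response of LOC4323915 thus held for 1 of its 2 probe sets.

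Whether the over-expression line differed from WT in these genes was tested with limma on all genes, over contrasts that the rule did not use. The rule did use the same arrays, and a gene that failed to rise in 1 genotype could not become a member. The shares of members below may thus be shaped by the rule, and their distance from those of all genes is not read as a result. After DS, H49 and WT differed in 0 of the 123 members at 2-fold with the adjusted p not above 0.05 (0% of all 15140 genes). The smallest limma adjusted p among the members was 0.97, and 2 members (1.63%) had an unadjusted p under 0.05, against 4.84% of all genes. In water 0 members passed (0% of all genes), the smallest limma adjusted p was 1, and 5 members (4.07%) had an unadjusted p under 0.05, against 1.92% of all genes. Student's t-test run on each gene gave 3 members at an unadjusted p of at most 0.05 in each treatment, against 3.78% of all genes after DS and 3.59% in water, and 0 after adjustment (0% of all genes). The H49_DS arrays lay wholly above the WT_DS arrays in 3 members (2.44%, against 4.59% of all genes) and wholly below in 2 (1.63%, against 3.9%). In water the H49_CT arrays lay wholly above the WT_CT arrays in 2 members (1.63%, against 4.34% of all genes) and wholly below in 4 (3.25%, against 3.12%).

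**Figure D4:**
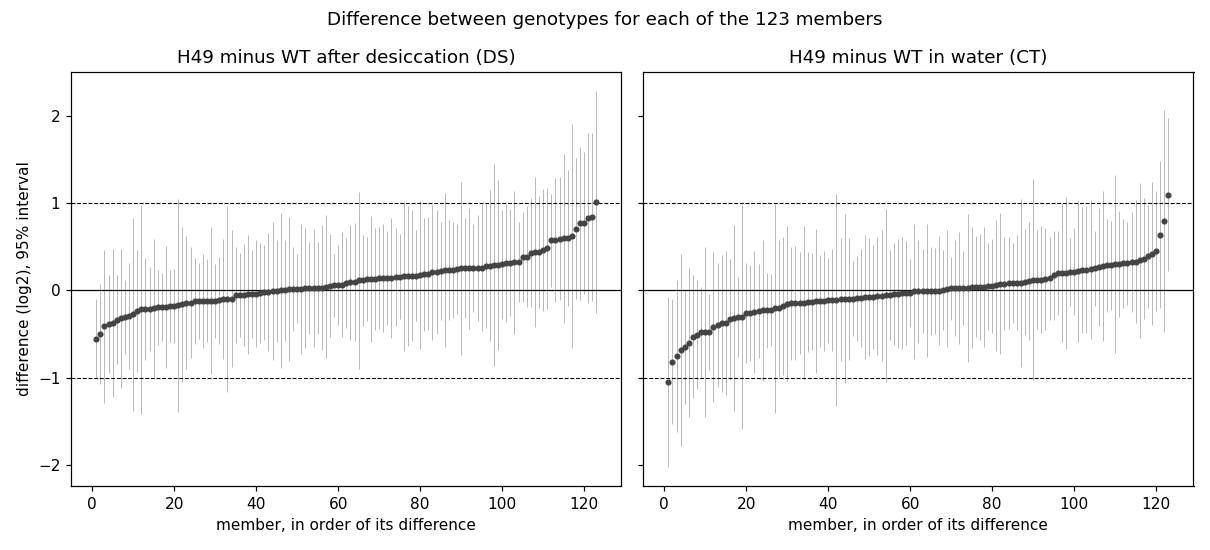
Difference between genotypes, H49 minus WT (log2), for each of the 123 members in order of its size, after desiccation (left) and in water (right). Points are the limma estimates, grey bars their 95% intervals and dashed lines 2-fold; the estimates run between -0.55 and 1.01 after desiccation and between -1.05 and 1.09 in water.

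The median difference of H49_DS minus WT_DS was 0.08, with 78 members higher in H49 and 45 lower, and that of H49_CT minus WT_CT was -0.01, with 56 higher and 67 lower. Without WT_DS replicate 1 the first was -0.08, with 44 higher and 79 lower, and without WT_CT replicate 1 the second was 0.11, with 75 higher and 48 lower, so that both directions turned. The median standard error over all arrays was 0.30 in each. After DS the largest differences were 1.01 (SE 0.59) for the Cys-rich domain gene LOC4334663, 0.84 (SE 0.45) for the cupin domain gene LOC4333794 and 0.83 (SE 0.45) for OsRCI2-5 (LOC4332481). LOC4334663 read 8.26, 8.77 and 8.18 in H49_DS, 7.02, 7.83 and 7.32 in WT_DS, 4.14, 6.53 and 5.10 in H49_CT, and 5.87, 4.08 and 3.46 in WT_CT. Its H49_DS arrays all lay above its WT_DS arrays, and its control arrays were spread over more than 2 in each genotype. LOC4333794 read 7.80, 7.58 and 7.63 in H49_DS, against 6.99, 6.11 and 7.39 in WT_DS, without overlap. Without WT_DS replicate 2 its difference was 0.48.

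In water the largest differences were 1.09 (SE 0.41) for the MYB gene LOC4338925, -1.05 (SE 0.45) for the ribosome inactivating protein gene LOC4324068 and -0.82 (SE 0.33) for the dioxygenase gene LOC4342424. Their 95% intervals, 0.22 to 1.97, -2.02 to -0.08 and -1.54 to -0.10, excluded 0 before adjustment over all genes, and the limma adjusted p was 1.00 for each. Without WT_CT replicate 1 the difference of LOC4342424 was -0.49. LOC4324068 read 7.47, 6.77 and 6.08 in H49_DS, 5.47, 6.49 and 7.48 in WT_DS, 3.64, 3.43 and 3.03 in H49_CT, and 4.03, 4.26 and 4.97 in WT_CT. Control arrays of the genotypes did not overlap, and those of DS did. The response in H49 minus that in WT is a description, since the rule bounds both responses from below. It was furthest from 0 in LOC4338925, LOC4324068 and LOC4332481, with -1.50 (SE 0.58) for LOC4338925, 1.34 (SE 0.64) for LOC4324068 and 1.31 (SE 0.64) for LOC4332481. Of the 123 members 0 were called for this difference by limma at the thresholds above. Without WT_DS replicate 1 that of LOC4324068 was 0.84, and without WT_CT replicate 1 that of LOC4332481 was 0.68.

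The response was larger in H49 for 77 members and larger in WT for 46, with a median difference of 0.12, and this split rested on replicate 1 of the WT groups. Without WT_DS replicate 1 the counts were 50 larger in H49 and 73 larger in WT, and without WT_CT replicate 1 they were 54 in H49 and 69 in WT. With both arrays left out, a setting chosen after seeing the data, they were 35 in H49 and 88 in WT, and the median difference was -0.21. Over single arrays left out in the other groups and replicates, the count larger in H49 ran between 70 and 84. The WT_DS replicate 1 array was the lowest of the 6 DS arrays in 65 members (52.8%), against 29.6% of all genes. The WT_CT replicate 1 array was the highest of the 6 control arrays in 52 members (42.3%), against 18.1% of all genes. By array the median over the members was 8.26, 8.38 and 8.42 in H49_DS, 7.94, 8.43 and 8.23 in WT_DS, 5.26, 5.34 and 5.40 in H49_CT, and 5.77, 5.19 and 5.13 in WT_CT. WT replicate 1 had the lowest median in DS and the highest in control, while within each treatment the medians over all genes differed by less than 0.2 between arrays.

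**Figure D5:**
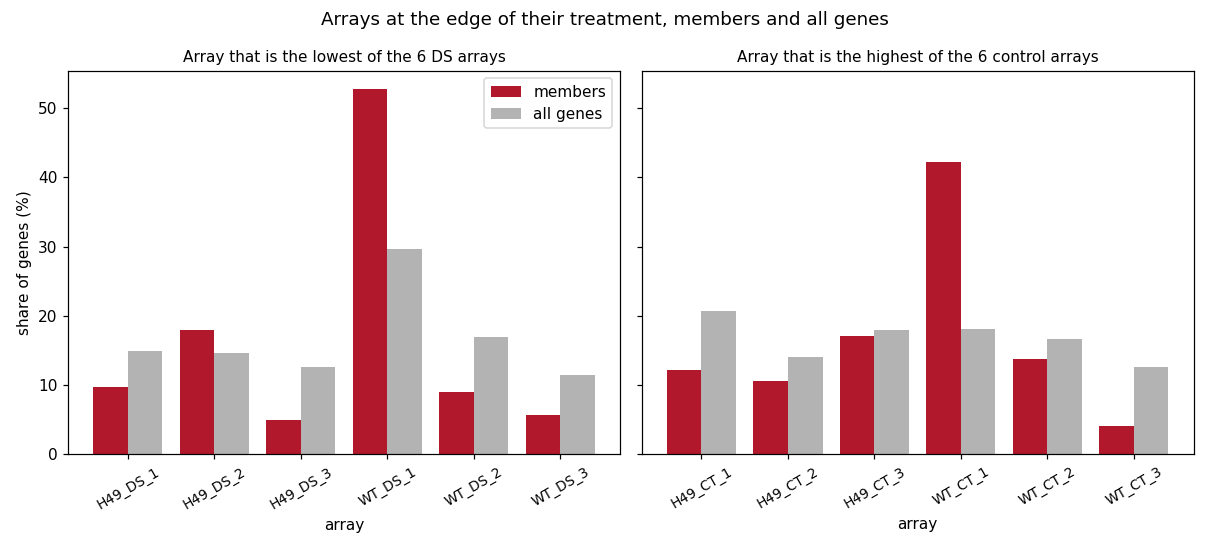
Share of genes (%) for which each array was the lowest of the 6 DS arrays (left) or the highest of the 6 control arrays (right), for the 123 members in red and all 15140 genes in grey. WT_DS replicate 1 takes 52.8% of the members and WT_CT replicate 1 takes 42.3%, more than any other array.

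WT_CT replicate 1 stood more than 1 above the mean of the other WT_CT arrays in 25 members and more than 1 below it in 2. WT_DS replicate 1 stood more than 1 below the mean of the other WT_DS arrays in 22 members and more than 1 above it in 1. The spread among replicates was widest in WT_CT, where the median SD of a member was 0.43 and 9 members had an SD over 1. The median SD was 0.30 in H49_DS, 0.37 in WT_DS and 0.31 in H49_CT, with 1, 2 and 3 members over 1. Over all genes the medians were 0.23, 0.28 and 0.22 in these groups and 0.24 in WT_CT. In some members the control arrays divided by replicate number in both genotypes. LOC4324783, with no description, read 5.41, 7.49 and 7.67 in H49_CT and 5.80, 7.96 and 7.42 in WT_CT, so that replicate 1 was low in each genotype, and its DS values lay between 9.01 and 9.46. LOC4333528, also with no description, read 7.03, 7.58 and 5.73 in H49_CT and 7.04, 7.56 and 5.38 in WT_CT, with replicate 3 low in each. The lowest control array had the same replicate number in both genotypes for 65 members (52.8%), against 44.8% of all genes. The share of members was below that of all genes for the highest control array (35.8% against 41.4%), the lowest DS array (24.4% against 36.1%) and the highest DS array (30.1% against 37.8%).

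Named genes of the ABA and dehydration pathway were set beside the members from a list of 54 symbols, of which 17 were among the genes measured. The list was chosen with earlier results of these data known, so its counts are a description and no support for the members. For this and the lists below, a gene rose or fell when it changed at least 2-fold with a limma adjusted p not above 0.05. That bar is lower than the 4-fold rule of the members. In H49, 12 of the 17 rose and 0 fell after DS (5.26% of all genes rose and 9.3% fell), and in WT 13 rose and 0 fell (4.93% rose and 8.47% fell). The median response of the 17 was 2.89 in H49 and 2.57 in WT. In WT_CT replicate 1, 7 of them had their highest control value, *OsHOX24* among them. No gene of the list was called between H49 and WT after DS or in water. Of the lists for other tissues few genes were measured. In leaf and photosynthesis, 2 of 12 were found and 1 fell in each genotype, and in root 2 of 8 were found and 1 fell in each. The sum of the 2 leaf genes on the linear scale was 212 to 580 in H49_DS, 182 to 354 in WT_DS, 1150 to 1904 in H49_CT and 911 to 2035 in WT_CT. This leaf sum was mostly CAB2R, the leaf gene that fell (-2.28 in H49 and -2.35 in WT). The other, CAB1R, was lower by less than 2-fold and was not called (-0.76 in H49 and -0.87 in WT). For the 2 root genes the sum was 60.8 to 110 in H49_DS, 69.7 to 75.8 in WT_DS, 111 to 254 in H49_CT and 148 to 319 in WT_CT. It was mostly the sum of LSI2, the root gene that fell (-1.34 in H49 and -1.81 in WT). The other, PT2, read only 2.03 to 2.79 and did not fall (0.40 in H49 and 0.26 in WT). Of the seed storage and oil body list 4 of 10 were found and 0 were called, with sums of 218 to 253 in H49_DS, 191 to 222 in WT_DS, 283 to 318 in H49_CT and 229 to 337 in WT_CT. Of the pathogen and wound list 3 of 8 were found and 1 rose in each genotype, with sums of 249 to 323 in H49_DS, 206 to 324 in WT_DS, 185 to 218 in H49_CT and 184 to 236 in WT_CT. The part of these tissues in the members' responses was not tested.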

How the data were processed

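The deposited values are log2 RMA intensities of 54922 probe sets on 12 arrays, made by the authors in GeneSpring. The labels name a 3' IVT labelling kit and the methods a WT PLUS kit. Of these probe sets 15829 carried 1 gene in the supplied table, 440 carried several genes and 38653 were not in it. A gene took its probe set with the highest mean, which gave 15140 genes, of which 627 had more than 1. Names and gene order came from RefSeq assembly ASM3414082v1. Array medians over all probe sets were 4.32 to 4.46, and the number of arrays limits the precision.

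limma 3.58.1 in R 4.3.3 was fitted to all genes with 1 mean per group over 12 arrays, and p-values were adjusted by Benjamini-Hochberg over 15140 genes. The fit was run on simulated data with independent noise, no DS effect and no deviation shared by replicate number. These data differ from the arrays in those points, and no conclusion is drawn from them. Tables and figures used Python 3.11.15, pandas 2.3.3, numpy 2.4.6 and matplotlib 3.10.9. Descriptions were joined from the study's gene list by matching its fold changes to probe sets within 0.01, as keys only. Of 1059 genes matched, 1057 lay on the listed chromosome. Members, lists and tests were chosen with earlier results of these data known. Genes named were the 12 largest responses, the genes at the threshold, those with the largest genotype differences, the highest and lowest in water, up to 4 of each description class, and those with neighbours or several probe sets. LOC4325395, LOC4324783, LOC4333528, LOC4343891, LOC4344545, LOC4336982, LOC4326678, the lncRNAs LOC9267137 and LOC9266316 and the named protein phosphatase genes were named after their values were seen. Of 18 pairs of arrays with the same replicate number, 13 correlated above 0.1 across genes in their deviations and the lowest was -0.20, though for 10 of 12 arrays the closest array had the same number. As 5 pairs were not above 0.1, the fit reported first has no block for them. Its standard errors and intervals thus take no account of the replicate number. Promoter motifs had been planned and were not analysed here.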

Additional observations from a re-analysis of the deposited data

How the results depend on the processing

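With 3 arrays a group, the median standard error of a difference between genotypes was 0.30 over the members, which limits what could be called. The count of members was 247 at a minimum difference of 1.5 and 32 at 3. It was 111 to 136 with each array left out, 162 with arrays centred on the median of all genes, 139 with quantile normalization, 137 without replicate 1 of both WT groups (chosen after seeing the data) and between 107 and 150 under the other settings. Centring moved the median response of all genes to 0.16 in H49 and 0.14 in WT, against -0.06 in each as deposited. The members' median response in H49 was 2.93 after centring, 2.80 after quantile normalization and 2.68 to 2.79 with each array left out. In WT it was 2.50 to 2.76 with each array left out and 2.91 without replicate 1 of both WT groups. Calls between genotypes after DS and in water were 0 among the members in every setting run, including the replicate block (0 calls in each), all probe sets, no fold minimum and the t-test.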
